A study of Mus musculus with 14 samples.

Results

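The genes of the mitochondrial respiratory chain and the ATP synthase were compared between knockout and control livers. Members were taken by symbol: every gene whose name begins with Nduf followed by a, b, c, s, v or af, with Sdh followed by a, b, c or d, with Uqcr, with Cox4 to Cox8 or with Atp5, and the genes Cyc1 and Cycs. This gave 99 genes of the 19505 that carried 1 symbol on the array, each measured by 1 probe set. They were 6 core and 30 accessory subunits of complex I, 8 assembly factors of complex I, 4 subunits and 4 assembly factors of complex II, 9 genes of complex III, cytochrome c, 19 genes of complex IV, 17 of complex V, and Ndufa4l2, which was put in no complex. Subunits encoded by mitochondrial DNA were not analysed here. Neither were nuclear members that lack a named row.

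Liver RNA of 14 samples from male mice of a C57BL/6 background was hybridised to Affymetrix arrays, and the values are log2 expression. In the 8 knockout samples, mice with floxed alleles of Prkaa1 and Prkaa2, the catalytic alpha1 and alpha2 subunits of AMP-activated protein kinase (AMPK), had received the vector AAV8-TBG-Cre. In the 6 control samples, mice with the same floxed alleles had received AAV8-TBG without Cre. Both groups ate a diet with 60% of calories from fat for 4 weeks from 6 weeks of age, received the vector at 10 weeks, were given metformin at 50 mg/kg/day for 3 weeks and were fasted for 16 h before the liver was taken, and the labels give an age of 4 months. The TBG promoter directs Cre to hepatocytes, so other liver cells keep both genes. Every sample had metformin and the fat-rich diet, so the comparison is of AMPK loss under both, and the series holds no group without the drug. The labels do not say that each sample is a separate mouse, and the p-values measure the spread between samples, which may be technical in part. In whole liver, fewer cells of a type and less RNA per cell cannot be told apart.

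The respiratory chain passes electrons from NADH (through complex I) and from succinate (through complex II) to coenzyme Q, then through complex III, cytochrome c and complex IV to oxygen. Complexes I, III and IV pump protons across the inner membrane, and complex V, the ATP synthase, lets them flow back to make ATP. Complex I has been described as a target of metformin, and AMPK, which senses a fall in ATP, has been described as an activator of mitochondrial biogenesis through the coactivator encoded by Ppargc1a. In liver the chain serves gluconeogenesis and fat oxidation during fasting.

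The arrays fell into 2 sets by their correlations over all rows: control 1 to 3 with knockout 1 to 4 (set 1), and control 4 to 6 with knockout 5 to 8 (set 2). Correlations were 0.988 to 0.994 within a set and 0.951 to 0.963 across sets. The labels do not mention the sets, so what they stand for is not known here, and every comparison below has the set as a term of the fit. Both targeted genes fell in knockout livers with no overlap in either set. The difference was -1.13 ± 0.08 for Prkaa2 (SE; adjusted p = 1.9e-06) and -0.67 ± 0.13 for Prkaa1 (adjusted p = 0.030, limma). All 10 hepatocyte markers had means of at least 10, and their mean lay between -0.06 and 0.06 of the set mean in every array. The means of 10 Kupffer cell and 10 endothelial markers overlapped between knockout and control arrays in both sets. In set 2 they were lowest in control 4 (-0.38 and -0.49), with knockout 5 at -0.27 and -0.11. In set 1 they were lowest in control 1 (-0.58 and -0.66), with knockout 1 at -0.45 and -0.30.

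No member differed between knockout and control livers at an adjusted p under 0.05 (limma with the set as a term, Benjamini-Hochberg over all genes). Of all 19505 genes, 137 passed, which is 0.702%, with 84 higher and 53 lower in knockout livers. That count lay between 44 (without control 4) and 132 (without control 3) when any 1 array was left out, and was more than 1.5 times smaller in every such fit other than those without control 3, control 6 or knockout 6. At an unadjusted p under 0.05 stood 4 members (Ndufb3, Ndufb7, Ndufaf1 and Cox7a1), which is 4.04% of the members against 10.4% of all genes. The smallest adjusted p of a member was 0.411, for Ndufb3.

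The members differed little in size as well as in test. Their differences, knockout minus control on the log2 scale, ran from -0.31 (Cox7a1) to 0.29 (Ndufaf5), with a median of -0.01 against 0.00 for all genes. Of the 99, 43 were above 0 and 56 below. The median absolute difference was 0.042 for members and 0.083 for all genes, and the median residual SD was 0.107 for members and 0.193 for all genes. For 85 members (85.9%) the 95% interval of the difference lay wholly inside a 1.25-fold change in either direction, ±0.32 on the log2 scale, against 55.2% of all genes. To set members against genes of a like level, the count was repeated over genes with a mean of at least 10. There, 63 of 64 members had such an interval, against 80.1% of the 1191 genes, and Cyc1 was the exception. None of these 64 members had an unadjusted p under 0.05 (limma), against 19.4% of the 1191 genes. Dropping the set term left 0 of all genes past the adjusted threshold (655 at an unadjusted p under 0.05, none of them a member), and the median SE of the members was then 0.295 in place of 0.072.

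**Figure D1:**
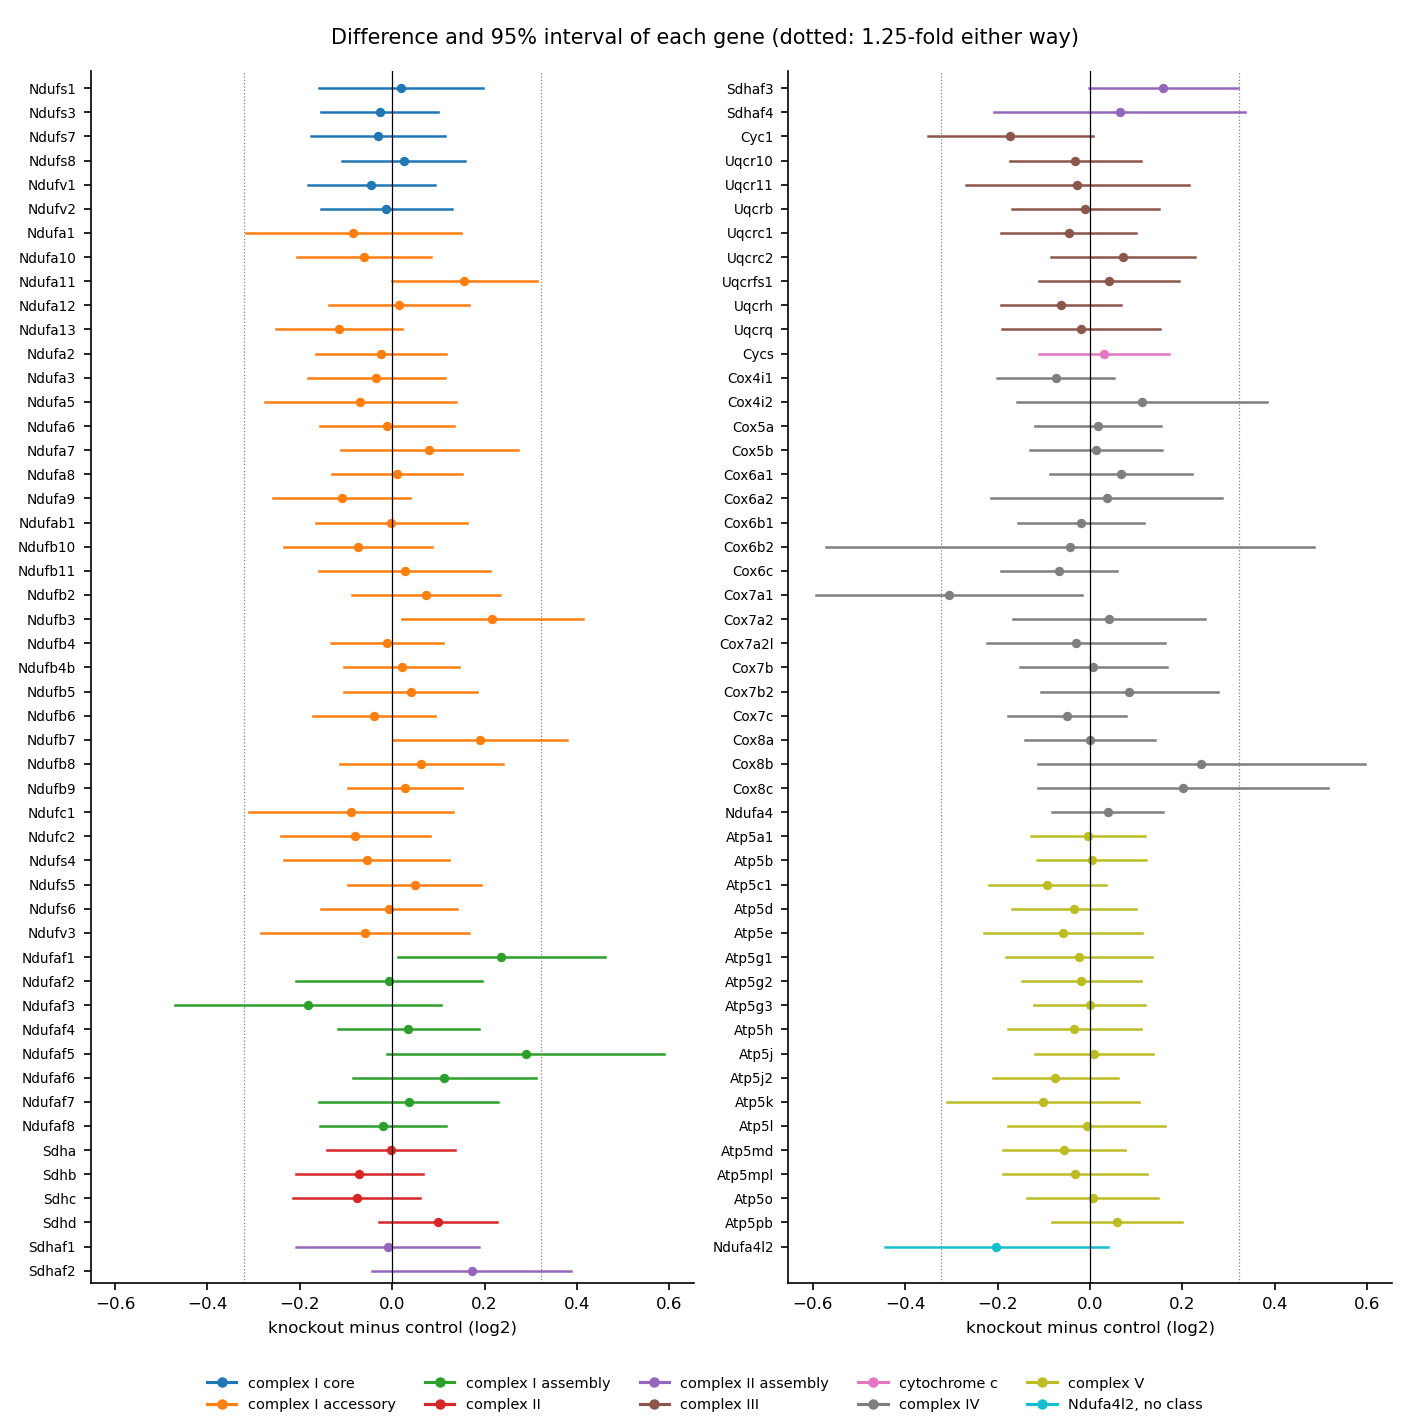
The difference between knockout and control livers (knockout minus control, log2) of each of the 99 genes, with its 95% interval from limma with the array set as a term, coloured by complex. Dotted lines mark a 1.25-fold change either way, and 85 of the 99 intervals lie between them.

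The promoters of the members were compared with those of other genes, since many nuclear genes of the respiratory chain are known targets of NRF-1 and of the ETS factor GABP (also called NRF-2). RefSeq windows of 250 bases before the annotated start (GRCm38.p6) were matched by symbol for 82 of the 99 members, which have 87 windows. Motifs were searched on both strands, each counted once a window, and a base could lie in more than 1 motif. The NRF-1 motif (GCGC, then A, any base, then GCGC) was in 17.2% of the member windows, against 5.48% of the windows of all measured genes. The ETS core CTTCCGG was in 18.4% of member windows, against 9.25%. The cyclic AMP response element TGACGTCA was in only 5 of the 87 member windows (5.75%), against 1.99%. The YY1 motif GCCATNTTG was in only 3 (3.45%), against 1.34%. The CCAAT box CCAAT was in 42.5%, against 35.0%. The GC box GGGGCGGGG was in 11.5%, against 14.5%, and the TATA box TATAAA in 9.20%, against 11.4%. These are matches of letters, with no measure of binding, and the measured genes were not matched to the members for level. The windows printed below belong to the members with the lowest adjusted p among assembly factors and in complex IV, to the 3 genes of the c ring, which share 1 mature product, and to Cox6a1, a member whose window holds 3 of these motifs.

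Complex I oxidises NADH at its peripheral arm and pumps protons in its membrane arm. The core subunits measured carry the cofactors or bind them: Ndufv1 holds the flavin that takes electrons from NADH, Ndufs1, Ndufs7, Ndufs8 and Ndufv2 hold iron-sulphur clusters, and Ndufs3 is part of the arm that leads to coenzyme Q. None of the 6 was past the threshold. Their differences ran from -0.04 to 0.02, with a median of -0.02, and all 6 intervals lay within 1.25-fold. Ndufv1 was the lowest of them. It had 11.22, 11.29, 11.28 and 11.45 in knockout 1 to 4, against 11.20, 11.32 and 11.36 in control 1 to 3. In set 2 it had 10.84, 10.88, 10.91 and 10.87 in knockout 5 to 8, against 11.06, 10.88 and 11.01 in control 4 to 6. The groups overlapped in both sets, and the difference was -0.04 ± 0.07 (SE; adjusted p = 0.893, limma). Ndufs1, the largest subunit, differed by 0.02 ± 0.08, Ndufs7 by -0.03 ± 0.07, Ndufs3 by -0.03 ± 0.06, Ndufs8 by 0.02 ± 0.06 and Ndufv2 by -0.01 ± 0.07.

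The 30 accessory subunits of complex I surround the core. Their median difference was -0.01, with 13 above 0 and 17 below, and 28 of the 30 intervals lay within 1.25-fold. The exceptions were Ndufb3 and Ndufb7, both in the membrane arm. Ndufb3 had 10.12, 10.04, 10.10 and 10.12 in knockout 1 to 4, against 9.88, 9.89 and 9.76 in control 1 to 3. It had 7.60, 7.87, 7.83 and 8.16 in knockout 5 to 8, against 7.61, 7.96 and 7.46 in control 4 to 6. Every knockout array of set 1 was above every control array, and in set 2 the groups overlapped. The difference was 0.22 ± 0.09 (SE; 1.16-fold; 95% interval 0.02 to 0.41), with an adjusted p of 0.411 in limma.

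Ndufb7 had 10.67, 10.64, 10.70 and 10.76 in knockout 1 to 4, against 10.50, 10.56 and 10.71 in control 1 to 3. It had 8.68, 8.53, 8.72 and 8.82 in knockout 5 to 8, against 8.62, 8.54 and 8.07 in control 4 to 6. The groups overlapped in both sets, and control 6 stood low. The difference was 0.19 ± 0.09 (adjusted p = 0.478, limma), and it was 0.10 without control 6. Ndufa11, another membrane arm subunit, differed by 0.16 ± 0.07 (adjusted p = 0.485). It had 10.69, 10.81, 10.70 and 10.81 in knockout 1 to 4, against 10.54, 10.49 and 10.65 in control 1 to 3, where the groups were apart, and they overlapped in set 2. Ndufb4 and Ndufb4b are near-identical copies whose probes may share signal, and they differed by -0.01 and 0.02.

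The 8 factors named Ndufaf build complex I and are absent from the finished enzyme. Their median difference was 0.04 and 5 of the 8 were above 0. Ndufaf1 acts in building the membrane arm. It had 8.47, 8.42, 8.41 and 8.55 in knockout 1 to 4, against 7.99, 7.96 and 8.03 in control 1 to 3. It had 7.18, 6.93, 7.37 and 7.38 in knockout 5 to 8, against 7.28, 6.94 and 7.42 in control 4 to 6. In set 1 the knockout arrays stood apart from the control arrays, and in set 2 they lay among them. The difference over both sets was 0.24 ± 0.11 (SE; adjusted p = 0.450, limma), made up of 0.00 in set 2 and 0.47 in set 1. Its promoter window (chr2:119662835-119663084, minus strand, GRCm38.p6) is shown 5′ to 3′ with a CCAAT box read on the other strand, a GC box and an ETS core in capitals.
Ndufaf1: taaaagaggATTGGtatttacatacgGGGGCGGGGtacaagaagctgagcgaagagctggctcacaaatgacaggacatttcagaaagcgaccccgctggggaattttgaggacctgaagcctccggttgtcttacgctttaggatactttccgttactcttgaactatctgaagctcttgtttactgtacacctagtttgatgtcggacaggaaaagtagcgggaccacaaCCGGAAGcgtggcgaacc

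Ndufaf5 hydroxylates an arginine of Ndufs7 during assembly. It had 6.28, 6.18, 6.58 and 6.51 in knockout 1 to 4, against 5.78, 6.12 and 5.71 in control 1 to 3. It had 4.51, 3.90, 3.74 and 4.55 in knockout 5 to 8, against 4.04, 4.03 and 4.28 in control 4 to 6. Again only the set 1 arrays were separate by group, and the values of set 2 are dim. The difference was 0.29 ± 0.14 (adjusted p = 0.510, limma), the highest of all members. Ndufaf3, which acts with Ndufaf4 on the part that meets coenzyme Q, went the other way, with a difference of -0.18 ± 0.14 (adjusted p = 0.708). Knockout 5 (6.08) and control 5 (7.35) lay far from the rest of set 2 there, and the difference was -0.08 without knockout 5 and -0.09 without control 5. Averaged over the 8 factors, each array set against its own mean, knockout 1 to 4 ran from 0.01 to 0.20 and control 1 to 3 from -0.13 to -0.07. In set 2 the averages ran from -0.13 to 0.09 in knockout 5 to 8 and from -0.02 to 0.09 in control 4 to 6. Core and accessory subunits together overlapped between the groups in both sets. The 10 further complex I assembly factors outside the member rule, such as Tmem126a (0.10 ± 0.07), had a median difference of 0.03. None was past the threshold. None had an unadjusted p under 0.05 (limma), against 10.4% of all genes.

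**Figure D2:**
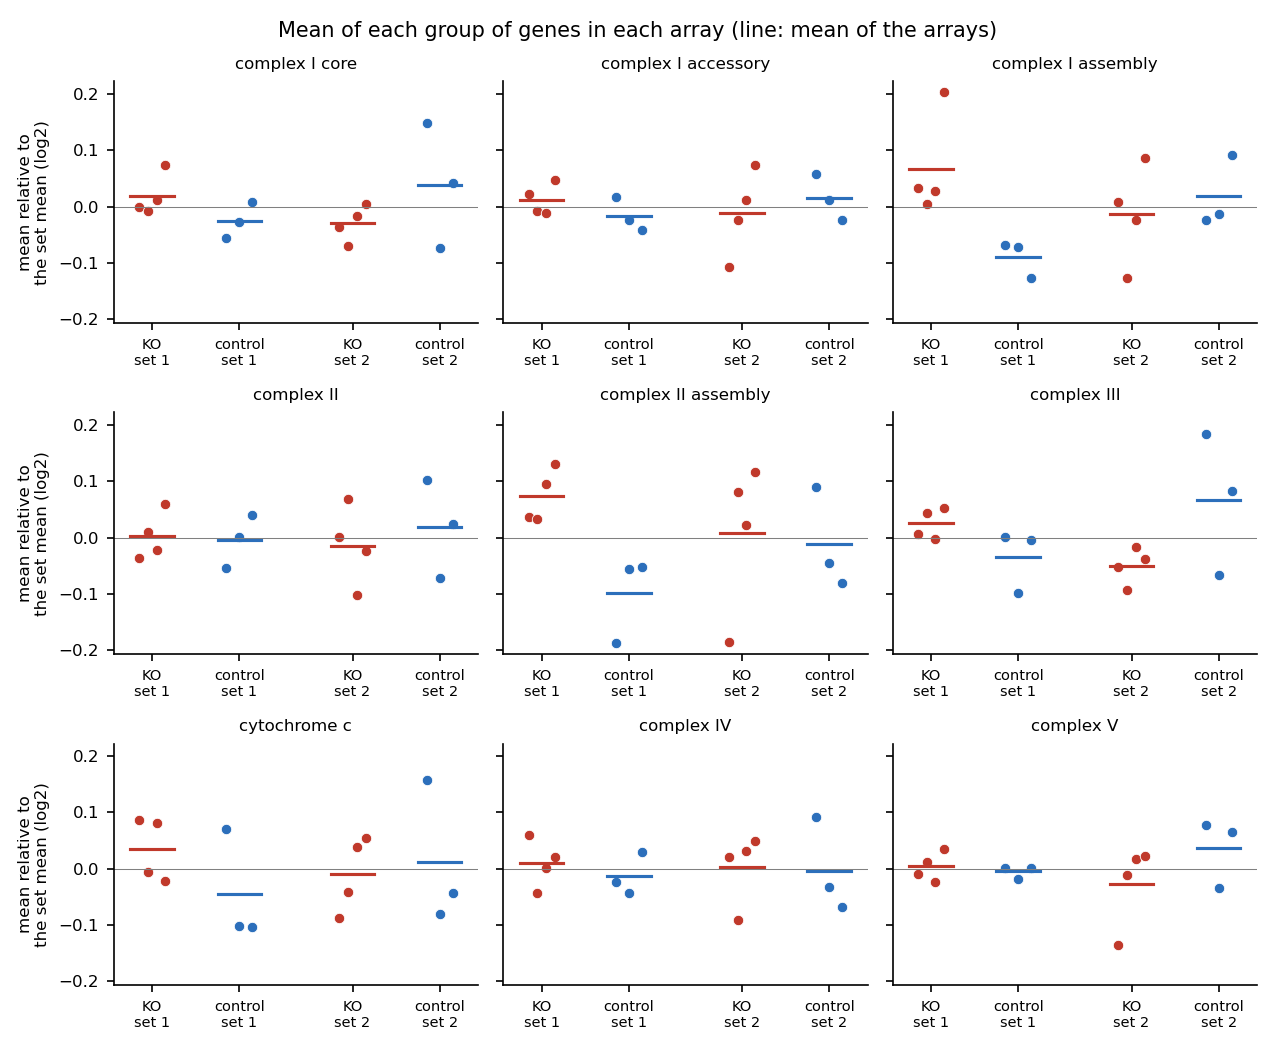
Mean of the genes of each complex in each array, relative to the mean of its array set (log2), for knockout (KO, red) and control (blue) livers in sets 1 and 2. Points are arrays and lines are means of 4 knockout or 3 control arrays; complex I assembly factors in set 1 run from 0.01 to 0.20 in KO and from -0.13 to -0.07 in control.

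Complex II, succinate dehydrogenase, is the only complex of the chain encoded wholly in the nucleus. Sdha binds the flavin, Sdhb holds the iron-sulphur clusters, and Sdhc and Sdhd anchor the enzyme in the membrane. None was past the threshold, and all 4 intervals lay within 1.25-fold. Sdhd differed by 0.10 ± 0.06 (adjusted p = 0.629), Sdhc by -0.08 ± 0.06, Sdhb by -0.07 ± 0.07 and Sdha by -0.00 ± 0.07 (SE, limma). Sdhd had 11.35, 11.43, 11.35 and 11.42 in knockout 1 to 4, against 11.24, 11.31 and 11.37 in control 1 to 3. It had 10.60, 10.63, 10.46 and 10.59 in knockout 5 to 8, against 10.54, 10.44 and 10.39 in control 4 to 6, so the groups overlapped in both sets. Sdhc had 9.81, 9.78, 9.77 and 9.83 in knockout 1 to 4, against 9.90, 9.92 and 9.88 in control 1 to 3. There every knockout array was below every control array, and in set 2 the groups overlapped.

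The 4 assembly factors of complex II had a median difference of 0.11, the highest of the classes, with 3 above 0. Sdhaf3, which protects the iron-sulphur clusters of Sdhb, had 7.79, 7.79, 7.83 and 7.87 in knockout 1 to 4, against 7.60, 7.73 and 7.66 in control 1 to 3. It had 6.96, 7.31, 7.32 and 6.91 in knockout 5 to 8, against 7.00, 6.96 and 6.92 in control 4 to 6. The groups were apart in set 1 and overlapped in set 2, where knockout 6 and 7 were above all control arrays and knockout 8 was below them. The difference was 0.16 ± 0.08 (adjusted p = 0.492, limma), with 0.16 in set 2 and 0.15 in set 1. Sdhaf2, which helps to attach the flavin to Sdha, differed by 0.17 ± 0.10 (adjusted p = 0.614) and by 0.11 without control 5, Sdhaf4, a chaperone of flavin-bound Sdha, by 0.06 ± 0.13, and Sdhaf1, which also serves Sdhb, by -0.01 ± 0.09.

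Complex III passes electrons from coenzyme Q to cytochrome c. Of its 9 genes 2 were above 0 and 7 below, with a median difference of -0.03 and none past the threshold. Cyc1 encodes cytochrome c1, the haem subunit that hands electrons on. It had 11.64, 11.73, 11.71 and 11.63 in knockout 1 to 4, against 11.75, 11.57 and 11.79 in control 1 to 3. It had 8.13, 8.53, 8.48 and 8.40 in knockout 5 to 8, against 8.66, 8.61 and 8.85 in control 4 to 6. In set 2 every knockout array was below every control array, and in set 1 the groups overlapped. The difference was -0.17 ± 0.08 (adjusted p = 0.510, limma), made up of -0.32 in set 2 and -0.02 in set 1. Uqcrfs1, the Rieske iron-sulphur protein, differed by 0.04 ± 0.07, Uqcrc2, a core protein, by 0.07 ± 0.07, and Uqcrh, the hinge protein, by -0.06 ± 0.06. Cycs, the mobile carrier cytochrome c, differed by 0.03 ± 0.07 (adjusted p = 0.939) and overlapped between the groups in both sets.

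Complex IV reduces oxygen. Several of its subunits come as pairs or trios of isoforms, of which 1 is used in liver and others mainly in muscle, lung or testis. The 12 genes other than those tissue isoforms had a median difference of 0.00, and all 12 intervals lay within 1.25-fold. Cox4i1, the usual isoform of subunit 4, differed by -0.07 ± 0.06, Cox5a by 0.02 ± 0.06, Cox5b by 0.01 ± 0.07, Cox6a1 by 0.07 ± 0.07, Cox6b1 by -0.02 ± 0.06, Cox7a2 by 0.04 ± 0.10 and Cox8a by 0.00 ± 0.07 (SE, limma). Cox7a2l, which takes part in joining complexes III and IV, differed by -0.03 ± 0.09, and Ndufa4, named for complex I but found in complex IV, by 0.04 ± 0.06. Cox6a1 is shown because its window (chr5:115348959-115349208, minus strand, GRCm38.p6) holds NRF-1 motifs, a CCAAT box and an ETS core, in capitals.
Cox6a1: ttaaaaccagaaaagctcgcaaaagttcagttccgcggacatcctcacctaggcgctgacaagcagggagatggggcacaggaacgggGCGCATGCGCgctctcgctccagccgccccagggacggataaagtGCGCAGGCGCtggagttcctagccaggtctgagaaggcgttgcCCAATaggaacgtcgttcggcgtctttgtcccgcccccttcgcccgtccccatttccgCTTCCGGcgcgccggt

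Of the 7 muscle, lung or testis isoforms, 2 had intervals within 1.25-fold, and their values are lower on the array and more scattered. Cox7a1, the heart and muscle isoform of subunit 7a, had the lowest difference of all members. It had 7.31, 6.67, 6.74 and 6.80 in knockout 1 to 4, against 7.01, 7.23 and 7.87 in control 1 to 3. It had 5.84, 5.96, 5.86 and 6.13 in knockout 5 to 8, against 5.98, 6.02 and 6.20 in control 4 to 6. The groups overlapped in both sets, with control 3 far above the rest of set 1. The difference was -0.31 ± 0.14 (SE; adjusted p = 0.442, limma), and it was -0.17 without control 3. The mean of 10 skeletal muscle markers, 7 of which had a mean under 5, was -0.11 to 0.46 in knockout 1 to 4 and -0.17 to -0.01 in control 1 to 3, and in control 3 it was -0.17. The mean of 6 measured cholangiocyte markers (of 7 listed, 1 with a mean under 5) was 0.81 in knockout 1 and -0.32 to -0.24 in knockout 2 to 4, against 0.78 in control 3 and -0.39 and -0.33 in control 1 and 2. The arrays with the highest Cox7a1 of each group in set 1 were thus those with the highest cholangiocyte marker means. In set 2 that mean ran from -0.15 to 0.13 in knockout arrays and from -0.05 to 0.21 in control arrays. There control 6 was the highest control array in both, but among knockout arrays Cox7a1 was highest in knockout 8 and the marker mean in knockout 6. The part of these markers in the result was not tested. The Cox7a1 window (chr7:30183921-30184170, plus strand, GRCm38.p6) holds a pair of CCAAT boxes read on the other strand, in capitals.
Cox7a1: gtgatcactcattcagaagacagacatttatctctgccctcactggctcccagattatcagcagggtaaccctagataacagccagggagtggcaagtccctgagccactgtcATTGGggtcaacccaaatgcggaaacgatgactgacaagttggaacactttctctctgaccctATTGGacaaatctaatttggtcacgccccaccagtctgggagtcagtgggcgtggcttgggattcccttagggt

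The muscle isoforms Cox8b and Cox6a2 differed by 0.24 ± 0.17 and 0.04 ± 0.12. Cox8b ran from 3.61 to 4.60 in knockout arrays and from 3.43 to 4.27 in control arrays, values too dim to rank, and its difference was 0.14 without control 6. Cox4i2, the isoform known from lung and from low oxygen, differed by 0.11 ± 0.13, with 0.03 without knockout 5 and 0.19 without knockout 6. The testis isoforms Cox6b2, Cox7b2 and Cox8c differed by -0.04 ± 0.25, 0.09 ± 0.09 and 0.20 ± 0.15. Cox7b2 ran from 2.67 to 3.18 over all arrays, where the lowest value of all rows was 2.13. Its interval within 1.25-fold is of dim values and cannot be read as steady expression. Cox8c had 4.29 in control 6, against 5.02 and 5.11 in control 4 and 5, and its difference was 0.06 without control 6. For Cox6b2, leaving out 1 array gave -0.19 (control 6) to 0.11 (knockout 6), and for Cox6a2 -0.04 (control 5) to 0.12 (control 4), so neither sign was stable. Ndufa4l2, a relative of Ndufa4 known from low oxygen, differed by -0.20 ± 0.11 (adjusted p = 0.584, limma). No member of these was past the threshold.

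Complex V had the tightest values. All 17 intervals lay within 1.25-fold, 4 genes were above 0 and 13 below, and the median difference was -0.02. Atp5b and Atp5a1 encode the catalytic beta and the alpha subunit of the F1 head. Atp5b had 12.67, 12.63, 12.70 and 12.70 in knockout 1 to 4, against 12.68, 12.62 and 12.66 in control 1 to 3. It had 12.36, 12.37, 12.34 and 12.34 in knockout 5 to 8, against 12.43, 12.30 and 12.38 in control 4 to 6. The groups overlapped in both sets, and the difference was 0.00 ± 0.06 (95% interval -0.12 to 0.12; adjusted p = 0.995, limma). Atp5a1 differed by -0.00 ± 0.06. The smallest adjusted p in complex V was 0.649, for Atp5c1, the rotating gamma subunit (-0.09 ± 0.06). Atp5j2 and Atp5k, small subunits of the membrane part, differed by -0.07 ± 0.06 and -0.10 ± 0.10, and Atp5k by -0.18 without control 5 and -0.04 without control 6.

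The c ring, which the proton flow turns, is encoded by Atp5g1, Atp5g2 and Atp5g3. Their precursors differ in the targeting peptide and yield the same mature protein. Atp5g1 had 11.17, 11.21, 11.10 and 11.21 in knockout 1 to 4, against 11.09, 11.08 and 11.14 in control 1 to 3. It had 10.86, 11.17, 11.22 and 11.28 in knockout 5 to 8, against 11.25, 11.22 and 11.29 in control 4 to 6. Knockout 5 stood low, and the groups overlapped in both sets. Atp5g1 differed by -0.02 ± 0.07, Atp5g2 by -0.02 ± 0.06 and Atp5g3 by -0.00 ± 0.06 (SE, limma), with all 3 intervals inside 1.25-fold. The windows of the 3 genes are printed to show that they differ in the motifs they hold, with CCAAT boxes (Atp5g1, Atp5g3) and an NRF-1 motif (Atp5g2) in capitals. They lie at chr11:96075632-96075881, minus strand for Atp5g1, at chr15:102671048-102671297, minus strand for Atp5g2 and at chr2:73911327-73911576, minus strand for Atp5g3, all in GRCm38.p6.
Atp5g1: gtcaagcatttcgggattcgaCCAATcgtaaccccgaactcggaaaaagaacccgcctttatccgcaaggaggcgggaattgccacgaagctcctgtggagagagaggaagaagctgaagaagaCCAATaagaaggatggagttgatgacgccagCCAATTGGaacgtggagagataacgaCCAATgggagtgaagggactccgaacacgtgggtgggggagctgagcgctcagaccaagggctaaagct
Atp5g2: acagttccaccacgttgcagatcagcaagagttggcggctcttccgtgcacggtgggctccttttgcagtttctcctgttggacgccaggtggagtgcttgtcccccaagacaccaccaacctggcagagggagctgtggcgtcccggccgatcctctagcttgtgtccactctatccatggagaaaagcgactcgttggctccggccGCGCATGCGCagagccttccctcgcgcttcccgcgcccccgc
Atp5g3: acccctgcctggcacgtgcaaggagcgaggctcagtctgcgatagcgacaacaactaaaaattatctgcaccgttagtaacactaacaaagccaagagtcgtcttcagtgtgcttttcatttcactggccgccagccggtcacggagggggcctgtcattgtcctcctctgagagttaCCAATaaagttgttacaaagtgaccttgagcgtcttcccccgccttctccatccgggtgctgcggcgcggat

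Atpif1 encodes the inhibitor that stops the F1 head from burning ATP. Its symbol falls outside the member rule. It had 8.98, 9.07, 8.91 and 8.84 in knockout 1 to 4, against 9.00, 8.94 and 9.12 in control 1 to 3. It had 8.03, 8.18, 8.32 and 8.39 in knockout 5 to 8, against 8.94, 8.53 and 8.57 in control 4 to 6. In set 2 every knockout array was below every control array, and in set 1 the groups overlapped. The difference was -0.26 ± 0.10 (adjusted p = 0.314, limma), with -0.45 in set 2 and -0.07 in set 1.

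**Figure D3:**
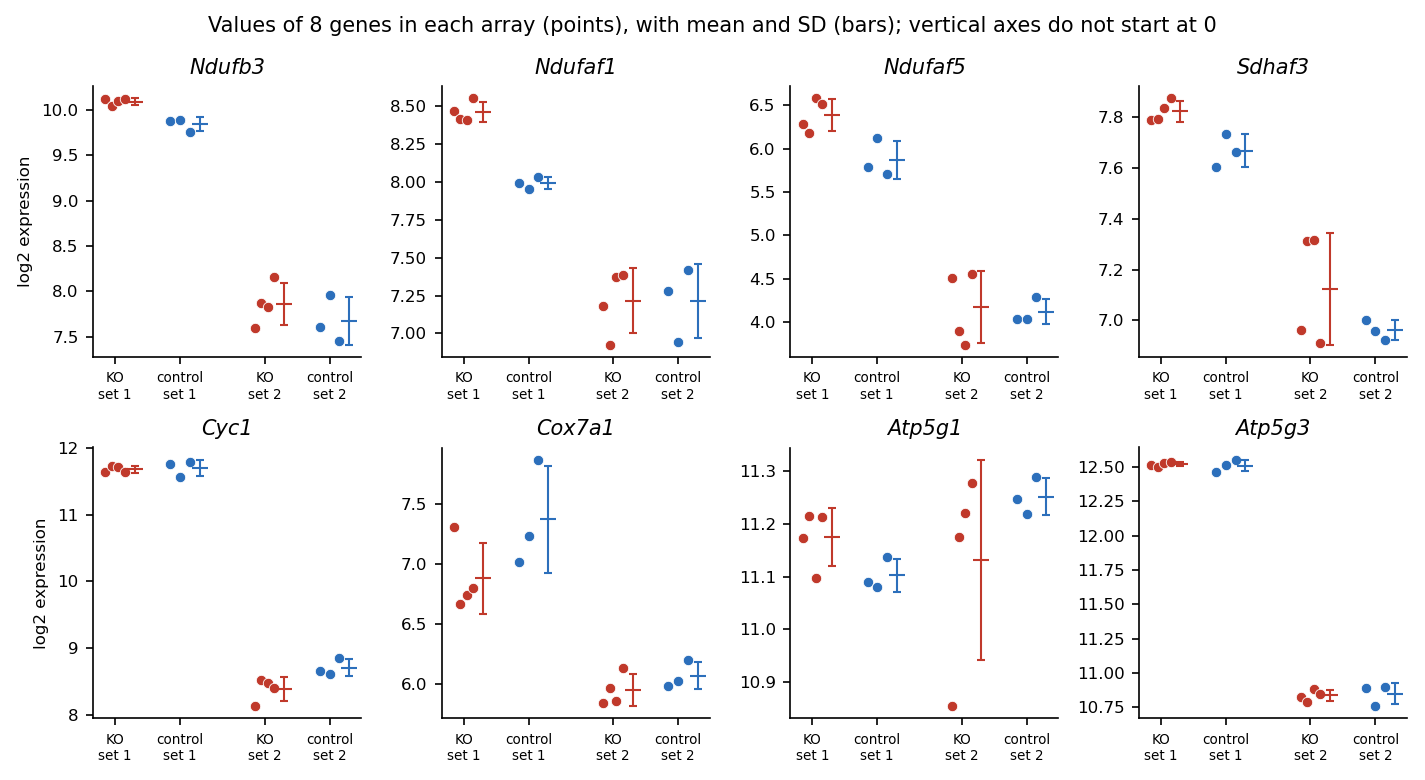
Log2 expression of 8 genes in each array, for knockout (KO, red) and control (blue) livers in sets 1 and 2, with the mean and SD of 4 knockout or 3 control arrays as bars beside the points. Ndufb3, Ndufaf1, Ndufaf5 and Sdhaf3 are higher in KO than in control arrays in set 1 and overlap in set 2; the vertical axes differ between genes and do not start at 0.

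Genes that build or regulate the chain and lie outside the member rule were counted by lists. None of the 20 complex IV assembly factors, 6 complex III assembly factors, 4 complex V assembly factors, 12 coenzyme Q genes or 9 regulators passed the threshold (limma). Unadjusted p-values under 0.05 (limma) were found for 0, 0, 1, 2 and 2 of them, in that order, against 10.4% of all genes. The medians were 0.04 for complex IV factors, -0.04 for complex III factors, 0.11 for complex V factors, 0.03 for coenzyme Q genes and 0.08 for regulators. Atpaf2, a chaperone of the alpha subunit of F1, differed by 0.35 ± 0.12 (adjusted p = 0.254), with 0.53 in set 2 and 0.18 in set 1. All 4 complex V factors were above 0 in the fit over both sets, and 1 was below 0 in set 2 alone. Their mean ran from 0.02 to 0.13 in knockout 1 to 4 and from -0.13 to -0.01 in control 1 to 3. In set 2 it ran from 0.01 to 0.25 in knockout 5 to 8 and from -0.12 to -0.07 in control 4 to 6. The groups were thus apart in both sets for this mean, of which Atpaf2 is a part. Taken singly, 0 of the 4 were without overlap in the same direction in both sets, against 1.31% of all genes.

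Among the regulators, Tfam, which packages and transcribes mitochondrial DNA, differed by 0.30 ± 0.10 (adjusted p = 0.207), with 0.39 in set 2 and 0.22 in set 1. Gabpb1, the partner subunit of GABP, differed by 0.24 ± 0.10 (adjusted p = 0.375). In the coenzyme Q list, Coq3, a methyltransferase of its synthesis, differed by 0.17 ± 0.07 (adjusted p = 0.441) and Coq10a, which binds coenzyme Q, by -0.21 ± 0.10 (adjusted p = 0.481). The smallest adjusted p among complex IV factors was 0.535 for Cox11 (0.19 ± 0.10), a copper carrier, and among complex III factors 0.565 for Uqcc3 (-0.15 ± 0.08).

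Estimated within each set alone, the members leaned in opposite directions by small amounts. The median difference was -0.05 in set 2, with 30 of 99 members above 0, and 0.03 in set 1, with 63 of 99 above 0. Of all genes, 50.1% were above 0 in set 2 and 51.7% in set 1. Among genes with a mean of at least 10, 62.0% were above 0 in set 1, against 60.9% of the 64 members at that level. For set 2 the shares were 47.2% and 20.3%. Members below 0 in set 2 and above 0 in set 1 numbered 43, or 43.4%, against 23.1% of all genes. In set 2 all 9 complex III genes and all 6 core subunits of complex I were below 0. In set 1 it was 2 of 9 and 1 of 6. Over all 99 members, each array's mean ran from -0.07 to 0.04 in knockout 5 to 8 and from -0.03 to 0.08 in control 4 to 6. In set 1 it ran from -0.00 to 0.06 in knockout 1 to 4 and from -0.03 to -0.02 in control 1 to 3. The groups thus overlapped in set 2, and in set 1 every knockout array was above every control array. The 86 members of complexes I to V and cytochrome c overlapped in set 1 when averaged without the assembly factors. Their means ran from -0.008 to 0.041 in knockout arrays and from -0.035 to -0.005 in control arrays there. The 12 assembly factors of complexes I and II were apart in set 1. The differences of the means over all 99 members were -0.04 in set 2 and 0.04 in set 1, against a pooled SD between arrays of 0.04. No test was made of them.

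The lean in set 2 shrank most when control 4 was left out, and next most without knockout 5. Each array was left out of its set in turn, a choice made after the values were seen. Without control 4, 49 of 99 members were above 0 in set 2, with a median of -0.01, against 50.2% of all genes. Complex III then had 4 of 9 genes above 0 with a median of -0.02, and the complex I core 3 of 6 with a median of -0.01. Members below 0 in set 2 and above 0 in set 1 then numbered 28, or 28.3%, against 22.7% of all genes. Without any other array of set 2, between 25 (control 5) and 43 (knockout 5) members were above 0. Without knockout 5 the median was -0.03, and all 9 complex III genes and 6 core subunits of complex I stayed below 0. Control 4 had the highest mean of complex III (0.18) and of all members (0.08) in set 2. It also had the lowest means of the Kupffer cell and endothelial markers given above. Stellate cell and cholangiocyte marker means of set 2 were lowest in knockout arrays (-0.25 and -0.15). Control 1 had the lowest Kupffer cell and endothelial means of set 1, with a mean over all members of -0.02. The part of these markers in the result was not tested. In set 1, leaving out 1 array gave 60 to 68 members above 0. The set 1 median of complex III was 0.05 with all arrays and 0.01 without control 2, and that of the complex I core was 0.03, with 0.01 without knockout 4.

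The difference between the sets was tested gene by gene as an interaction. None of the 19505 genes passed at an adjusted p under 0.05, and the smallest for a member was 0.998. At an unadjusted p under 0.05 stood 3 members, against 4.83% of all genes. They were Ndufb8 (-0.13 in set 2 and 0.26 in set 1), Ndufb10 (-0.22 and 0.08) and Ndufaf1 (0.00 and 0.47), the first 2 of them named after their values were seen. Set 2 alone gave 1 member with an unadjusted p under 0.05 (Cyc1), against 6.58% of all genes. Set 1 alone gave 6 (Ndufb3, Ndufb8, Ndufaf1, Ndufaf5, Cox7a1 and Ndufa4l2), against 8.63%. Knockout and control arrays did not overlap for 5 members in set 2 (5.05%, against 7.51% of all genes), all lower in knockout arrays. They did not overlap for 13 in set 1 (13.1%, against 9.58% of all genes), of which 11 were higher. No member was without overlap in the same direction in both sets, against 1.31% of all genes.

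**Figure D4:**
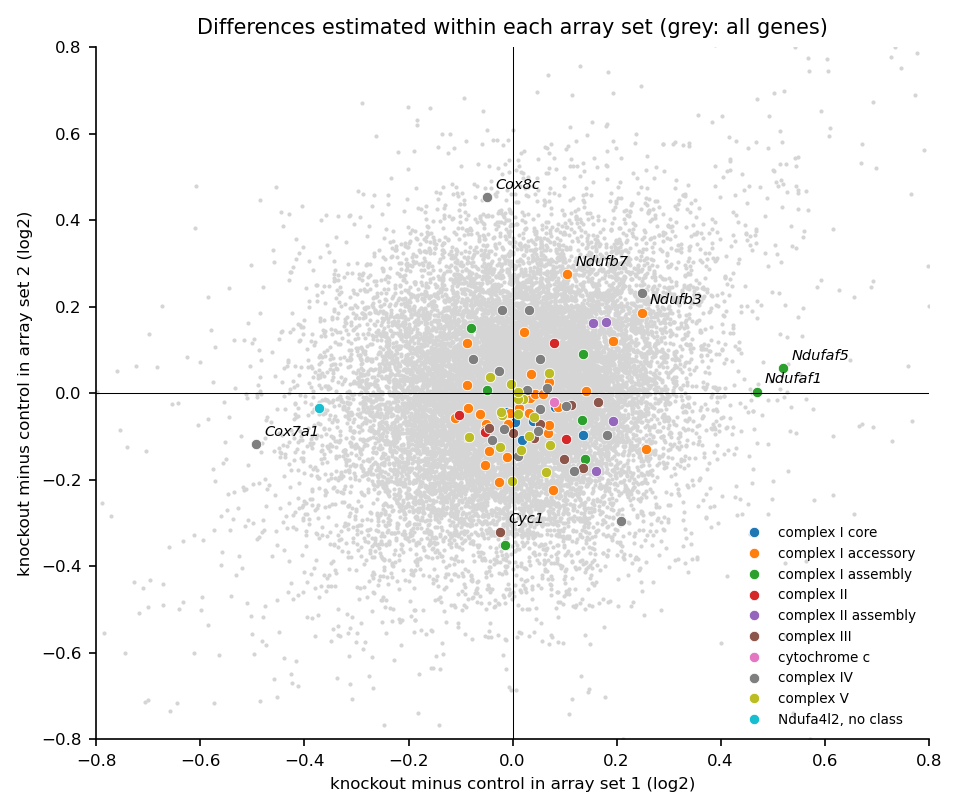
Difference between knockout and control livers (knockout minus control, log2) estimated in array set 2 (vertical) against set 1 (horizontal), for the 99 genes coloured by complex and all other genes in grey. Of all genes, 63 lie outside the axes; Ndufaf1 and Ndufaf5 lie far right at 0.47 and 0.52 in set 1 and near 0 in set 2.

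The median gap of the members between the array sets was larger in size than the largest difference of a member between knockout and control livers. The members were lower in set 2 than in set 1 by a median of -1.08 on the log2 scale (set 2 minus set 1), where all genes had a median of 0.11. Of the 99, 90 were below 0 and 51 below -1, against 7.18% of all genes below -1. Among genes with a mean of at least 10, 33 of 64 members (51.6%) were below -1, against 15.1% of the 1191 genes. The lowest was Atp5e, the epsilon subunit of the ATP synthase, at -3.58, which is 12.0 times lower. It had 8.30, 8.21, 8.38 and 8.04 in knockout 5 to 8 and 8.37, 8.42 and 8.45 in control 4 to 6. In set 1 it had 11.90, 11.87, 11.89 and 12.01 in knockout 1 to 4 and 12.04, 11.86 and 11.67 in control 1 to 3. The sets were apart by far more than the spread within them, in knockout and control livers alike. Cyc1 had a gap of -3.17.

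The gap differed between complexes and between subunits of 1 complex. Its median was -1.66 in complex I accessory subunits, -1.28 in complex I assembly factors and -0.44 in complex I core subunits. It was -1.37 in complex III, -0.98 in complex IV, -0.86 in complex V and -0.64 in complex II. Subunits present in equal number in the finished enzyme had unlike gaps: Sdha had 0.57, the highest of the members, and Sdhd -0.83. Of the c ring genes, Atp5g1 had 0.04, Atp5g2 -0.58 and Atp5g3 -1.67. Of the complex IV genes, Cox6a1 had 0.30 and Cox4i1 -2.06. The 57 ribosomal protein genes, looked at after the gap was seen, had a median of -1.17. Each set holds knockout and control livers in the same ratio, so the gap does not enter the difference fitted with the set as a term. A level of a member in 1 set cannot be read against its level in the other.

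**Figure D5:**
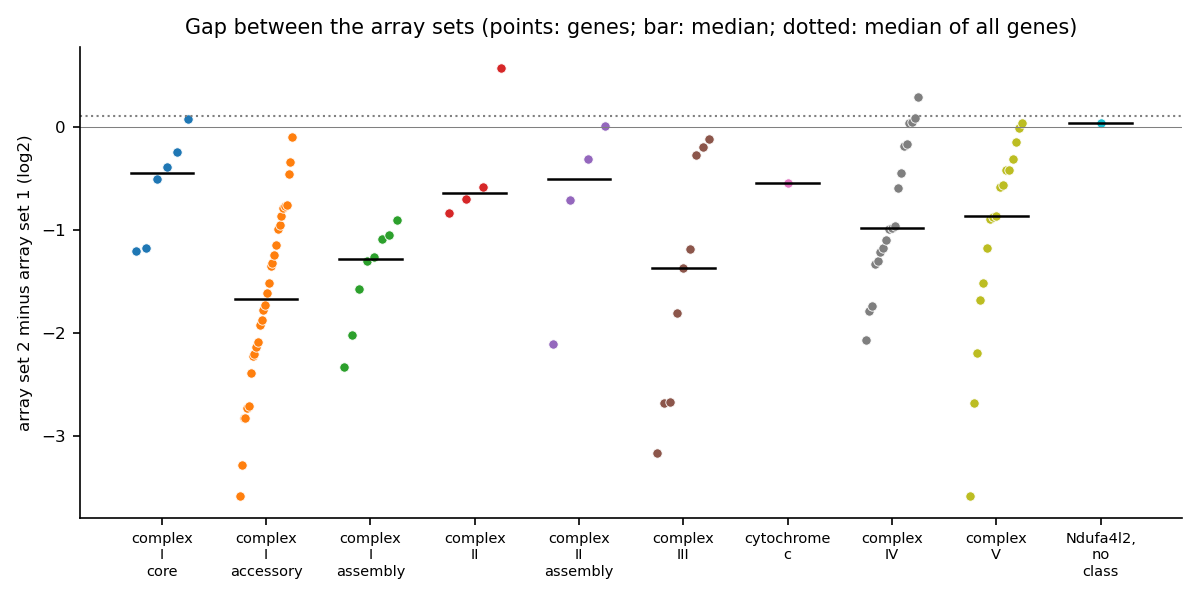
Gap between the array sets (mean of the set 2 arrays minus mean of the set 1 arrays, log2) of each of the 99 genes by complex. Black bars are medians of each complex and the dotted line is the median of all genes, 0.11; complex I accessory subunits have a median of -1.66.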

How the data were processed

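Liver RNA was labelled with the Affymetrix WT PLUS kit, per the labels' protocols. The deposited values are log2 expression, made by the authors with RMA in Partek, per the submitters' processing notes, which give no versions; that the scale is log2 was inferred from the values, 2.13 to 13.8. How bright the arrays' background is was not analysed here. Of 22206 rows, 19572 had exactly 1 symbol in the annotation of the platform and NCBI's gene table, 2634 were not named, and for 55 genes with more than 1 row the row with the highest mean was used. No filter was set on level.

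Knockout minus control was fitted with lmFit and eBayes of limma 3.58.1 (R 4.3.3) with the array set as a term, in each set alone, and with an interaction. Benjamini-Hochberg adjustment ran across the 19505 genes, and 0.05 was the threshold. The members, gene lists and array sets were chosen with earlier results of these data known, and no list was tested. Named are cofactor-bearing subunits, isoform genes, the 3 members with the smallest p in each complex, extremes of the differences and of the set gap, and up to 2 genes with the smallest p in other lists. Knockout 7 and 8 carry the sample numbers of knockout 5 and 6 in their descriptions. The arrays were not identical, which cannot show that the livers were separate, and they were kept as separate samples. Correlations were 0.989 for knockout 5 with 7 and 0.991 for 6 with 8. The other pairs of knockout arrays in set 2 had 0.989 to 0.991. Same-numbered samples did not deviate together, so the main fit has no replicate term. Alternatives changed the samples, filter, normalization and fit. Promoter sequences are RefSeq's (GRCm38.p6). The fits were tested on simulated data.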

Additional observations from a re-analysis of the deposited data

Results flagged for a closer look

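An array far from the rest of its group was looked for in the knockout arrays and in the control arrays, after each value was set against the mean of its array set, for the members and the means of the complexes. Of 218 groups examined, 22 held such an array by Dixon's criterion, and chance gives about 1 in 20. That rate assumes an even spread, but knockout arrays of Ndufaf3 had an SD of 0.14 in set 1 and 0.42 in set 2. The means of the complexes also hold members counted on their own, so the groups are not independent. Values below are log2 distances from the set mean, and no cause was tested.

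Knockout 5 accounted for 9 of them, each time on the low side. It stood at -0.1359 in the mean of complex V and at -0.1853 in the mean of the complex II assembly factors. Among ATP synthase genes it stood at -0.3279 for Atp5g1, -0.2397 for Atp5h, -0.2504 for Atp5j2 and -0.2986 for Atp5mpl. It also stood at -0.3987 for Cox7a2l, -0.3897 for Cyc1 and -0.7523 for Ndufaf3. Without knockout 5, the difference of Cyc1 between knockout and control livers was -0.12.

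Among the other knockout arrays, knockout 4 was high for Ndufv1 at 0.1517 and knockout 8 was high for Ndufa1 at 0.4999. Knockout 6 was low for Ndufs8 at -0.1405 and for Sdhaf1 at -0.3945, and high for Sdhc at 0.112. Among control arrays, control 3 was high for Cox7a1 at 0.7805 and low for Ndufb4 at -0.08661. Control 4 was high for Atp5l at 0.3019 and for Ndufa6 at 0.2044, and low for Ndufa3 at -0.1697. Control 5 was low for Cox5b at -0.1421 and high for Ndufaf3 at 0.5199, and control 6 was low for Ndufb7 at -0.5001.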

How the results depend on the processing

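No member passed the adjusted threshold in any of the 27 alternatives run, and the smallest adjusted p of a member was 0.214, for Ndufb3 without control 5. The count over all genes, 137, was less stable. It was 2 in set 1 alone, 2 in set 2 alone, 67 with knockout 5 averaged with 7 and 6 with 8, 12 without knockout 7 and 8, 26 without control 1 and 4, 0 without the set term, 325 with a trend and robust option, and 223 over genes whose higher group mean was at least 5. Leaving out 1 array gave 44 to 132. With the replicate number as a block and the set term it was 2; the correlations of same-numbered samples' deviations were 0.02 to 0.09, so the labels' numbers were not taken as pairs. The median difference of the complex I assembly factors was 0.13 in set 1 alone, that of complex III 0.0532 in set 1 alone and that of all members -0.0485 in set 2 alone; the cause was not tested. Sign changes among members, none of them past the threshold, were most frequent in set 1 alone (34 of 99), without control 4 (20) and in set 2 alone or with the replicate block (19 each). Leaving out each array within its own set, added after seeing the data, gave 25 to 49 members above 0 in set 2 and 60 to 68 in set 1; the 49 was without control 4, against 30 with all arrays. The number of arrays limits the precision.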
